A study of Mus musculus with 18 samples.

Results

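Lung tumors that arose in mice breathing antimony trioxide, a metalloid oxide used in flame retardants, were set against normal lung of vehicle control mice. The comparison used 11 of the 18 arrays of the series, 6 tumors of exposed mice (tumors 1 to 6) and 5 control lungs (controls 1, 2, 3, 4 and 6), taken by their titles. The animals were B6C3F1/N mice, a hybrid laboratory strain, 5 to 6 weeks old at the start, and the labels name no engineered allele in any group. Per the labels' protocols, groups of 60 males and 60 females inhaled an aerosol of 0, 3, 10 or 30 mg per cubic metre by whole-body exposure. A day's exposure lasted 6 hours and 12 minutes, with 5 such days in a week, and the study ran up to 105 weeks. Tumors were cut away from the surrounding lung and frozen, and RNA was read on an Affymetrix mouse array that covers genes with short probes near the 3′ end. The labels give neither the animal, the sex nor the exposure level of an array, so the 6 tumors may span several exposure levels, and p-values measure only the spread between these samples. Control lung differs from the tumors in both exposure and tumor state, which cannot be told apart in this comparison. Another group, 4 spontaneous lung tumors whose arrays met the same quality limit, was used further on to show where the tumors of exposed mice differed from tumors without that exposure.

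Normal lung parenchyma holds flat alveolar type 1 cells, surfactant-making type 2 cells, airway club and ciliated cells, capillary endothelium, fibroblasts, smooth muscle and macrophages. Mouse alveolar/bronchiolar carcinomas are epithelial growths that largely resemble type 2 cells, and they often carry an active RAS-RAF-MEK-ERK cascade, the chain of kinases that growth factor receptors switch on. Active ERK induces a set of genes that includes its own inhibitors, the Sprouty, SPRED and dual-specificity phosphatase (DUSP) families. The title of the series names MAPK signalling in these carcinomas, and the ERK genes are therefore described member by member.

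The 11 arrays resembled each other, with a median correlation between each array and the rest of at least 0.8. Control 5, which fell below that value, was left out. At most 32 values were identical between any 2 arrays, so no array was a copy of another. Some technical measures differed between the groups. The 3′ minus 5′ difference of the Gapdh control probe sets was 1.09 to 1.97 in tumors and 1.84 to 2.21 in controls (exact 2-sided permutation test over 462 assignments, p = 0.00649, adjusted over 4 measures p = 0.00866). The same difference for actin overlapped (exact p = 0.634). The 5′ probe set of bioB, a bacterial transcript added before hybridization, read 9.94 to 10.36 in tumors and 10.35 to 10.97 in controls (exact p = 0.00433). The array medians, at 6.69 to 6.72 in tumors and 6.77 to 6.81 in controls, did not overlap (exact p = 0.00216, the smallest these groups allow). With the actin difference as a covariate, 6840 genes were called in the comparison described next, against 6952 without it, and with each array centred on its median 7657. The part of the Gapdh and bioB measures was not tested.

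By limma, 6952 of 18193 genes, 38.2%, differed between tumors and controls at an adjusted p under 0.05. Of these, 4222 (23.2% of all genes) were higher in tumors and 2730 (15% of all genes) were lower. With each array centred on its median the counts were 5270 higher and 2387 lower, so that 31.2% of the calls were lower, against 39.3%. Larger changes leaned the other way. Of the 2572 called genes that changed at least 2-fold, 1138 were higher and 1434 lower, and at 8-fold or more the counts were 83 and 222. For 4448 genes, 24.4%, the 6 tumor values and the 5 control values did not overlap, with 14.3% above and 10.1% below every control. The median log2 difference over all genes was 0.09, against a median standard error of 0.15. Below, "rose" and "fell" are used of genes that passed this threshold, a difference is tumor minus control on the log2 scale ± standard error, and 3 tumor values are the lowest, the median and the highest of 6.

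Dlk1, an imprinted fetal gene whose membrane protein is related to Notch ligands, rose most. Its log2 level was 12.70, 13.06, 12.68, 9.68, 12.17 and 11.71 in tumors 1 to 6 and 4.80, 3.80, 3.50, 4.81 and 4.63 in the 5 controls. Every tumor stood far above every control, and tumor 4 was the lowest of the 6. The difference was 7.69 ± 0.53 (adjusted p = 9.56e-07). Cltrn, which encodes collectrin, a partner of amino acid transporters in the kidney and gut, read 8.24, 10.77 and 12.03 in tumors and 2.48 to 2.79 in controls, a difference of 7.65 ± 0.64. The airway defence protein Bpifa1 differed by 6.50 ± 1.00, with tumor levels from 7.63 to 13.62. Lce3f, a gene of the cornified layer of skin, rose by 5.63 ± 1.11, and Gkn2, a gastric mucosal protein, by 5.07 ± 1.24. Both spread over more than 7 log2 units among tumors, as described further on. Receptors and channels also stood among the leading rises. Ros1, a receptor tyrosine kinase, read 8.44, 10.12 and 10.56 in tumors against 4.44 to 5.14 in controls, a difference of 5.10 ± 0.32. The calcium channel Trpv6 rose by 4.80 ± 0.30 and Npy2r, a receptor for neuropeptide Y, by 5.15 ± 0.77. Sox9, a transcription factor of the embryonic distal lung, read 8.18, 9.53 and 10.76 in tumors and 4.31 to 6.17 in controls, a difference of 4.76 ± 0.47. The other leading rises were Rian, a non-coding RNA from the Dlk1 domain (5.26 ± 0.19), the reductase Akr1c19 (5.12 ± 0.31), the granzyme Gzme (5.06 ± 0.89), the solute carrier Slc35f1 (4.91 ± 0.83), Sertad4 (4.87 ± 0.25) and the BCL2 relative Bcl2l15 (4.79 ± 0.40).

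The largest fall was that of Ogn, a small proteoglycan of the extracellular matrix. It read 5.71, 4.33, 4.64, 4.61, 3.84 and 4.53 in tumors 1 to 6 and 12.23, 11.91, 12.21, 12.09 and 11.61 in the controls, with no overlap and a difference of -7.41 ± 0.27 (adjusted p = 1.95e-08). Mfap4, a microfibril protein of elastic tissue, read 5.35, 6.54 and 7.64 in tumors and 12.68 to 13.20 in controls and fell by 6.47 ± 0.37. The airway secretoglobin Scgb3a2 fell by 6.47 ± 0.83, the GABA receptor subunit Gabrp fell by 6.46 ± 0.51 and the paraoxonase Pon1 fell by 6.50 ± 0.45. Several further genes of this group belong to cilia, namely Fam183b (-6.23 ± 0.30), Hoatz (-6.09 ± 0.35) and 1110017D15Rik (-5.77 ± 0.38), and 1700016K19Rik fell by 6.26 ± 0.39. Actc1, the cardiac actin of the muscle sleeve around pulmonary veins, read 3.79, 4.05 and 4.36 in tumors and 9.59 to 11.21 in controls, -6.41 ± 0.23. Tmem100, a capillary endothelial protein, fell by 5.74 ± 0.32, the sodium channel Scn7a fell by 6.04 ± 0.42, the cholecystokinin receptor Cckar fell by 6.01 ± 0.73, the leukotriene-cleaving dipeptidase Dpep1 fell by 5.85 ± 0.39 and the collagen-processing enhancer Pcolce2 fell by 5.80 ± 0.66.

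**Figure D1:**
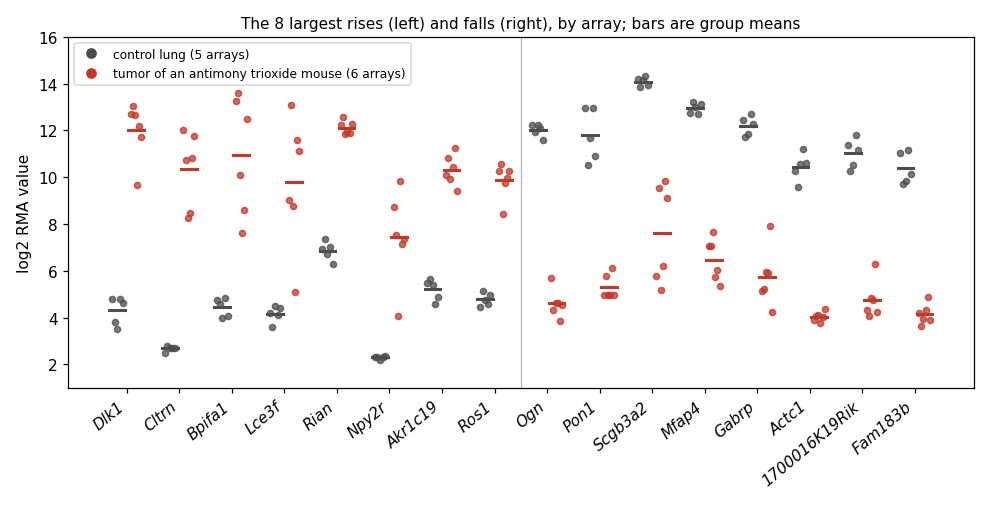
Log2 RMA values (vertical axis) of the 8 genes with the largest rises and the 8 with the largest falls among called genes without overlap, for 5 control lungs (grey) and 6 tumors (red), with bars at the group means. The groups are separated in all 16 genes, and the tumors spread more than the controls in Lce3f and Bpifa1.

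Gene lists for cell types and pathways were then read one by one, against the shares of all genes called higher (23.2%) and lower (15%). In whole-tissue RNA, fewer cells of a type and less RNA per cell cannot be told apart. Among 53 lists, ciliated, endothelial and airway secretory markers had the lowest medians, and alveolar macrophage, cell division and lipid-laden macrophage genes the highest.

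**Figure D2:**
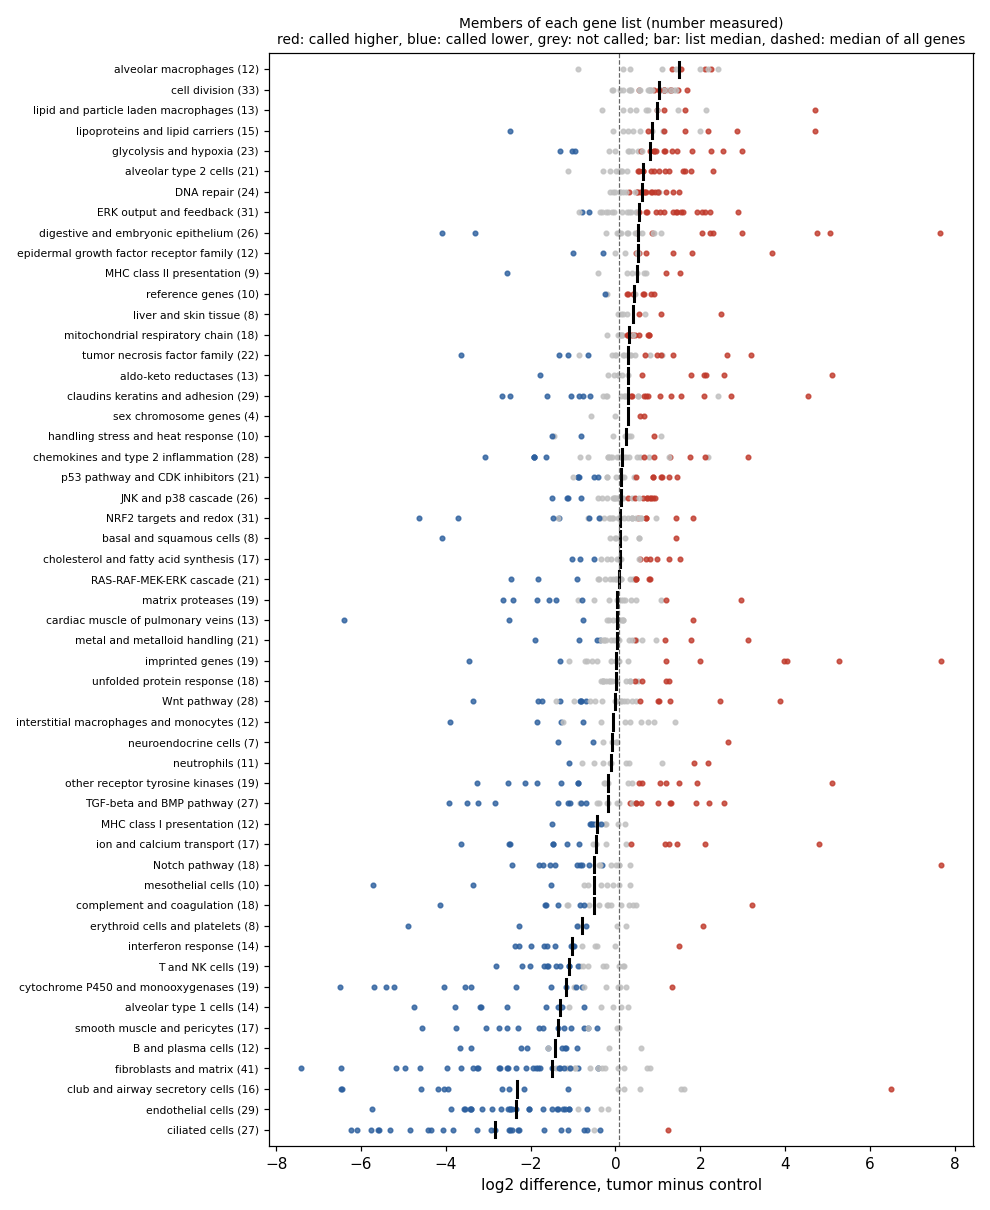
Log2 difference between tumors and control lung (horizontal axis) for every measured member of each gene list, ordered by the list median (black bar), with the median of all genes as a dashed line. Members called higher are red, called lower blue and not called grey, so that the ciliated and endothelial rows are almost wholly blue and the DNA repair and cell division rows hold no blue point.

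Type 2 cell genes rose. Of 21 measured markers, 13 rose, 0 fell and 8 were not called, with a median difference of 0.65. The mean level over these markers was 12.44 to 12.74 in tumors and 11.63 to 12.31 in controls, so every tumor lay above every control. The surfactant genes differed among themselves. Sftpc, the defining surfactant protein of this cell, was at 14.07, 14.25 and 14.38 in tumors and 14.05 to 14.40 in controls, a difference of only 0.02 ± 0.10 near the top of the array's range. Sftpd, a collectin of innate defence, rose by 1.02 ± 0.18, and Sftpa1 by 0.65 ± 0.09. Enzymes that mature surfactant protein B moved more. The protease Napsa read 11.30, 11.90 and 12.42 in tumors and 8.57, 10.65, 9.11, 8.94 and 10.43 in the controls, 2.31 ± 0.38, and the cathepsin Ctsh rose by 1.64 ± 0.14. Lpcat1, which makes surfactant phospholipid, rose by 0.91 ± 0.14, and Slc34a2, the phosphate carrier of this cell, by 1.17 ± 0.21. Among regulators, Cebpa rose by 1.77 ± 0.14 (adjusted p = 2.17e-06) and Nkx2-1, the lineage factor of lung epithelium, chosen after its values were seen, by 0.52 ± 0.16, which was not called without control 1 (adjusted p = 0.055). The markers Lyz2 (-0.14 ± 0.15), Cd74 (0.28 ± 0.21) and Cxcl15 (0.13 ± 0.08) were not called. Surface and secreted markers were the least uniform part of the list, with 4 of 10 higher and differences from -1.11 to 1.77. Without tumor 1, 1 marker of the list was called lower.

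Type 1 cell markers were lower, 9 of 14 called, all 9 of them below every control, and 0 higher. Spock2, a matrix proteoglycan, read 5.10, 6.43 and 8.55 in tumors and 10.63 to 11.61 in controls, -4.75 ± 0.49. Cav1, the coat protein of caveolae, read 8.64, 9.19 and 10.40 in tumors and 12.32 to 12.84 in controls, -3.18 ± 0.32. Igfbp2 fell by 3.78 ± 0.28, the chloride channel Clic5 fell by 2.56 ± 0.33 and Rtkn2 fell by 3.20 ± 0.63. The list was not uniform. Ager, the receptor most used to mark these cells, differed by -0.35 ± 0.13 (adjusted p = 0.0603) and was called lower without tumor 1 or 4 (adjusted p 0.0326 to 0.0395). Not called were the water channel Aqp5 (0.13 ± 0.24) and Cldn18 (0.29 ± 0.26). Podoplanin (Pdpn) read 11.90, 11.39, 11.80, 8.34, 11.21 and 11.86 in tumors 1 to 6, within or just below the control range of 11.78 to 12.63 except in tumor 4.

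Airway secretory markers split. Of 16 markers, 10 fell and 1 rose. Scgb1a1, the defining club cell protein, likewise named with its values known, read 10.90, 8.17, 8.47, 9.12, 13.34 and 8.88 in tumors 1 to 6 and 14.36 to 14.49 in controls, -4.59 ± 0.78. Tumor 5 kept a level within 1.2 log2 units of the controls, and the other tumors lay at least 3 log2 units below them. All 8 of 8 measured enzymes and other markers fell, among them the aldehyde dehydrogenase Aldh1a1 (-3.96 ± 0.22), the claudin Cldn10 (-4.19 ± 0.25) and Chad (-2.50 ± 0.19). Secreted defence proteins did not share this direction. Bpifa1 rose, and Muc5b read 6.71, 8.94 and 11.94 in tumors against 6.51 to 9.03 in controls, 1.55 ± 0.90, which was not called.

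Genes of motile cilia fell most. Of 27 measured markers, 25 fell, and 24 lay below every control in all 6 tumors, with a median of -2.83. The mean level over the list was 5.65 to 6.25 in tumors and 8.29 to 9.58 in controls. Foxj1, the master regulator of motile cilia, named here for that role with its values known, read 4.94, 5.31 and 6.20 in tumors and 10.16, 9.09, 9.20, 10.69 and 9.86 in the controls, -4.42 ± 0.30 (adjusted p = 8.08e-07). Rsph4a, a protein of the radial spoke, fell by 5.31 ± 0.28, Ccdc113 fell by 5.58 ± 0.32, and the microtubule protein Tppp3 fell by 3.84 ± 0.19. Rfx3, a second cilia regulator that other cells also use, was not called at -0.50 ± 0.29. The 1 member that rose was Spag6, at 2.35, 3.88 and 4.80 against 2.20 to 3.08, 1.25 ± 0.34, a low level on this array, and its adjusted p was 0.0756 without controls 2 and 6. The promoters of this list are shown because many hold an X-box, the motif GTTGCCNNG that RFX factors, partners of Foxj1, bind. It was found on either strand within 250 bases before to 50 after the start in 12 of the 23 members with a RefSeq promoter (52.2%), against 6.45% of the 14452 genes with a promoter, where a gene counts if any of its promoters holds the motif. Sequences are from RefSeq (GRCm38.p6), 60 bases each on the strand of the gene, with the motif in capitals. Fam183b is at chr11:58801961-58802020 (minus strand), 1110017D15Rik at chr4:41507765-41507824 (minus), Ccdc113 at chr8:95534040-95534099 (plus), Dnaic2 at chr11:114727359-114727418 (plus) and Spag6 at chr2:18698959-18699018 (plus).
Fam183b: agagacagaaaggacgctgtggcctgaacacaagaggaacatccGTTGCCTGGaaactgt
1110017D15Rik: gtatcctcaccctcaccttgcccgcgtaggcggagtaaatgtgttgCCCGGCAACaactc
Ccdc113: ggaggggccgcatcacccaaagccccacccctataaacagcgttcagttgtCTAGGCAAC
Dnaic2: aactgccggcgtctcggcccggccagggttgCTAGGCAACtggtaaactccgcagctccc
Spag6: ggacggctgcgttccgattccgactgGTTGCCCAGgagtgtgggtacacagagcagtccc
The first 3 of these genes fell by over 5 log2 units. Dnaic2, a dynein intermediate chain that was printed for contrast after its value was seen, fell by only -0.36 ± 0.12, a call lost without control 1, 3, 4 or 6 or tumor 2, 4 or 6 (adjusted p 0.0588 to 0.0925), and Spag6 rose. Of 14 motifs searched in 10 lists, those shown here and below were picked for their counts after these were seen, and no test was made.

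Endothelial markers fell almost throughout, 26 of 29, with 0 higher and a median of -2.36. The mean level over the list was 7.90 to 9.09 in tumors and 10.44 to 11.09 in controls. Sox17, a transcription factor of arterial endothelium, read 6.81, 7.28 and 7.83 in tumors and 10.66, 11.03, 10.96, 10.61 and 10.86 in the controls, -3.58 ± 0.18 (adjusted p = 1.63e-07). The groups were apart by almost 3 log2 units. The adhesion molecule Icam2 fell by 3.15 ± 0.16, Calcrl and Ramp2, which form the adrenomedullin receptor, differed by -3.89 ± 0.25 and -3.44 ± 0.23, and the phosphatase Ptprb fell by 2.69 ± 0.20. Not called were Nos3, the endothelial nitric oxide synthase (-0.35 ± 0.19), and Prox1, the lymphatic regulator (-0.18 ± 0.51).

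Fibroblast and matrix genes followed the same direction, 27 of 41 lower and 0 higher, but collagens stood out within the list. Among transcription factors 6 of 7 fell, led by Tcf21, a lineage factor of lung fibroblasts, at 4.99, 6.13 and 6.59 in tumors and 10.13 to 11.01 in controls (-4.62 ± 0.27). Secreted factors of these cells fell, with Vegfd, a vascular growth factor, at 4.71, 5.67 and 6.16 in tumors and 10.17 to 10.75 in controls (-4.96 ± 0.25). Ltbp4, which stores TGF-beta in microfibrils, fell by 2.56 ± 0.15 and Col13a1 fell by 2.12 ± 0.14. Of 9 collagens only 2 fell. Col1a1, the main fibrillar collagen, read 10.62, 11.44 and 12.12 in tumors and 9.98 to 11.21 in controls, 0.81 ± 0.31 (adjusted p = 0.056), and was called higher without control 2 or 6 or tumor 4 or 6 (adjusted p 0.0234 to 0.046). Pdgfrb, a marker of pericytes and activated fibroblasts, differed by -0.25 ± 0.20 and was not called.

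Contractile smooth muscle genes all fell, 11 of 11. Myh11, the smooth muscle myosin, read 6.28, 7.0 and 7.61 in tumors against 10.38 to 12.06 in controls, -4.56 ± 0.32. Desmin (Des) fell by 2.56 ± 0.23. Of 6 pericyte markers 3 fell, and the potassium channel subunits Kcnj8 (0.09 ± 0.43) and Abcc9 (0.05 ± 0.34) were not called. Other structures gave fewer calls. Of 13 cardiac muscle markers 3 fell and Myh6 rose, at 5.56, 6.29 and 7.05 against 4.18 to 4.79. Of 10 mesothelial markers 3 fell, Gpm6a most at -5.72 ± 0.25, while Msln, their usual marker, was at 5.82, 6.14 and 9.58 in tumors and 5.60 to 8.73 in controls (-0.06 ± 0.71). Platelet genes parted, with Ppbp lower at -4.88 ± 0.41 and Pf4, which macrophages also make, higher at 2.05 ± 0.39.

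Macrophage markers gave few calls, and the control lungs differed among themselves. The mean level over 12 alveolar macrophage markers was 8.13, 9.99, 8.28, 8.12 and 10.85 in controls 1, 2, 3, 4 and 6, and 11.21, 10.17, 11.13, 10.14, 9.73 and 10.08 in tumors 1 to 6. Controls 2 and 6 thus lay at the level of the tumors, and the other 3 controls below all of them. Marco, a scavenger receptor, showed this at 7.17, 10.38, 7.39, 6.47 and 11.37 in the controls against 8.37, 10.68 and 13.22 in tumors (2.42 ± 1.03, adjusted p = 0.084) and was called without control 6 or tumor 5 (adjusted p 0.0274 to 0.0363). In all 4 markers rose, which were Siglecf (2.25 ± 0.52), the nuclear receptor Pparg (1.55 ± 0.25), Chil3 (2.10 ± 0.74) and Krt79 (1.33 ± 0.41). Chil3 was not called without control 1, 3 or 4 or tumor 1, 2, 3, 4 or 6 (adjusted p 0.0549 to 0.104), nor Krt79 without control 1, 3 or 4 (adjusted p 0.0502 to 0.053). Without controls 2 and 6, a comparison chosen after the data were seen, 9 of 12 rose, and without control 6 alone 9. Without control 1, 3 or 4 the count was 2. Genes of lipid- and particle-laden macrophages behaved alike, 4 of 13 higher and 9 without controls 2 and 6, also 9 without control 6 alone and 2 without control 1, 3 or 4 or tumor 1, 2, 3 or 5. Among them Apoc1 did not depend on those controls, at 12.44, 13.13 and 13.34 in tumors and 8.01, 8.92, 7.81, 7.38 and 9.31 in the controls (4.70 ± 0.32). Of 12 interstitial macrophage and monocyte markers, 4 fell, among them Cd163 (-3.90 ± 0.73) and Csf1r (-0.77 ± 0.16), and 4 rose without controls 2 and 6.

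Lymphocyte markers were lower, 11 of 19 for T and NK cells and 9 of 12 for B and plasma cells, with 0 and 0 higher. Without controls 2 and 6 these counts were 9 and 8, with 0 and 1 higher. The T and NK median was then -0.643, against -1.085, and the B and plasma cell median -1.164, against -1.428. Cd3e, a chain of the T cell receptor complex, read 5.43, 6.22 and 7.26 in tumors and 8.11, 9.26, 8.24, 7.98 and 8.84 in the controls, -2.21 ± 0.31. Cd79a of the B cell receptor fell by 2.23 ± 0.31. The regulatory T cell factor Foxp3 (0.20 ± 0.17) and the checkpoint receptor Pdcd1 (0.09 ± 0.14) were not called. Genes of antigen presentation moved less. Of 12 class I genes 6 fell, B2m fell by 0.55 ± 0.12 and the class I activator Nlrc5 fell by 1.50 ± 0.34. Without controls 2 and 6 this count was 3. Of 9 class II genes 2 rose, and 7 without controls 2 and 6 (5 without control 2 alone). Without control 1, 3 or 4 or tumor 1, 2, 4 or 6, and with quantile normalization, only 1 rose. Only H2-Ob, which B cells use, fell (-2.57 ± 0.42).

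Interferon-induced genes were lower, 9 of 14 members called and 8 of them below every control. Ifit3 read 9.42, 8.22, 8.60, 7.16, 8.11 and 8.80 in tumors 1 to 6 and 10.17, 12.17, 10.40, 10.28 and 10.71 in the controls, -2.36 ± 0.42. Control 2 was the highest and tumor 4 the lowest. The guanylate-binding protein Gbp2 fell by 2.00 ± 0.31, the transcription factor Irf1 fell by 1.06 ± 0.17 and Usp18, which cleaves ISG15 from proteins, fell by 2.27 ± 0.47. Mx1 rose, at 6.24, 7.13 and 8.17 against 5.00 to 6.87 (1.49 ± 0.40). Cxcl10 was not called (-0.49 ± 0.59). The interferon-stimulated response element (ISRE), searched on both strands as TTTC, any 2 bases and TTTC again, stood in the promoters of 8 of 12 members (66.7%) and of 3.63% of all genes with a promoter. It is printed for 3 members that fell, from Ifit3 (chr19:34583382-34583441, plus strand), Gbp2 (chr3:142620579-142620638, plus) and Ifit1 (chr19:34640779-34640838, plus).
Ifit3: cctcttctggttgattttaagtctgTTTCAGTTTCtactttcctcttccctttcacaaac
Gbp2: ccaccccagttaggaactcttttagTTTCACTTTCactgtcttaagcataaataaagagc
Ifit1: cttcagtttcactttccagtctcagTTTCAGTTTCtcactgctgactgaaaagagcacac
The capitals mark 1 match in each. Ifit1, printed after its value was seen, read 6.37, 7.14 and 7.65 in tumors and 8.03 to 10.49 in controls, -1.67 ± 0.39.

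Among chemokines and type 2 inflammation genes, 6 of 28 rose and 5 fell, and without controls 2 and 6 the counts were 10 and 3 (3 higher without control 1). The attractant of regulatory T cells Ccl17 read 10.03, 10.55 and 10.96 in tumors and 7.97 to 9.29 in controls, 1.77 ± 0.25. Arg1, an arginase of alternatively activated macrophages, read 7.14, 8.67 and 11.50 in tumors and 5.53, 5.71, 5.60, 5.64 and 6.24 in the controls, a rise of 3.13 ± 0.59. Retnla, induced by the same cytokines, fell (-3.07 ± 0.72), as did Ccl11, which draws eosinophils (-1.92 ± 0.20), and the acidic chitinase Chia1 (-1.92 ± 0.38). Of 11 neutrophil genes, the attractants Cxcl1 (2.19 ± 0.59) and Cxcl2 (1.85 ± 0.56) rose and the receptor Csf3r fell (-1.08 ± 0.26), while the granule proteins S100a8 (-0.12 ± 0.63) and S100a9 (-0.51 ± 0.62) were not called.

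The EGF receptor family gave 6 of 12 members higher and 2 lower. Among receptors Erbb3, which signals in pairs with Erbb2, read 11.12, 11.42 and 11.91 in tumors and 10.01, 10.14, 9.70, 10.42 and 10.26 in the controls, 1.36 ± 0.16 (adjusted p = 4.66e-05). Erbb2 rose by 0.48 ± 0.15, with overlap, and was not called without control 1 or 3 or tumor 1, 2 or 6 (adjusted p 0.0506 to 0.0648). Egfr fell by 0.30 ± 0.10 and was not called without control 1, 2 or 3 or tumor 2 or 6 (adjusted p 0.0607 to 0.0811). Erbb4 was not called (-0.01 ± 0.11). Ligands moved further. Epiregulin (Ereg) read 6.79, 8.44, 9.94, 5.46, 7.59 and 8.85 in tumors 1 to 6 and 3.54, 6.36, 3.35, 3.47 and 4.01 in the controls, where control 2 overlapped the lowest tumor, and differed by 3.70 ± 0.77 (adjusted p = 0.00243). Egf rose by 1.81 ± 0.26 without overlap, and Tgfa by 0.57 ± 0.18, the latter not called without control 2 or 6 (adjusted p 0.0582 to 0.0608). Nrg1, a ligand of Erbb3, fell by 1.00 ± 0.26. Hbegf (0.54 ± 0.31) and Epgn (0.22 ± 0.22) were not called. Of 19 other receptor tyrosine kinases 7 rose and 7 fell. Besides Ros1, the hepatocyte growth factor receptor Met rose by 1.19 ± 0.17, Ret by 1.50 ± 0.20, the ephrin receptor Epha4 by 1.91 ± 0.20 and Fgfr2, an epithelial receptor for fibroblast growth factors, by 1.05 ± 0.18. Among those that fell were Kit (-3.27 ± 0.39), Pdgfra (-2.53 ± 0.51), Ntrk2 (-2.13 ± 0.33), Fgfr3 (-1.28 ± 0.24) and Fgfr4 (-1.86 ± 0.33).

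The cascade itself changed little. Of 21 members 5 rose and 3 fell, shares near those of all genes, with a median of 0.08. Nras (0.00 ± 0.13) and Braf (0.12 ± 0.10) were not called. The kinases Map2k1 and Map2k2, which phosphorylate ERK, rose by 0.49 ± 0.15 and 0.49 ± 0.12, with Map2k1 not called without control 1 or 4 (adjusted p 0.0619 to 0.0642). Exchange factors and adaptors rose by similar sizes, Sos2 by 0.82 ± 0.14, Sos1 by 0.45 ± 0.13 (adjusted p = 0.0689 without controls 2 and 6) and Shc1 by 0.80 ± 0.18. The largest changes were falls. Rasgrp2, an exchange factor of platelets and vessels that acts on Rap1, read 6.06, 6.37 and 6.93 in tumors and 8.58 to 9.06 in controls, -2.47 ± 0.17. Rasal2, which switches RAS off, read 7.41, 7.76 and 8.15 in tumors and 9.89, 9.36, 9.83, 9.56 and 9.32 in the controls, -1.82 ± 0.15 (adjusted p = 3.2e-06). The other RAS inhibitors, Nf1 (0.41 ± 0.17), Rasa1 (0.13 ± 0.10), Rasa2 (0.34 ± 0.14), Rasa3 (-0.14 ± 0.15) and Rasal1 (0.11 ± 0.11), were not called over all 11 arrays, and Rras fell (-0.90 ± 0.16). Nf1 was called higher without tumor 5 (adjusted p = 0.0165) and Rasa2 without tumor 5 (adjusted p = 0.0261).

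Genes that ERK induces rose. Of 31 measured members, 16 rose (13 of them above every control in all 6 tumors), 2 fell and 13 were not called, with a median of 0.56 against 0.09 over all genes. The mean level over the list was 8.93 to 9.30 in tumors and 8.21 to 8.70 in controls. Feedback inhibitors led. Of 6 Sprouty and SPRED genes 5 rose. Spred1 read 11.60, 11.80, 11.61, 11.97, 11.71 and 11.69 in tumors 1 to 6 and 9.12, 10.03, 9.83, 9.80 and 9.67 in the controls, 2.04 ± 0.15 (adjusted p = 1.5e-06). Every tumor was more than 1.5 log2 units above the highest control. Spry2 rose by 1.56 ± 0.24, Spred2 by 1.44 ± 0.12, Spry1 by 1.42 ± 0.19 and Spred3 by 0.71 ± 0.15. Spry4 was the exception, at -0.31 ± 0.20. The phosphatases divided. Dusp4, a nuclear ERK phosphatase, read 10.54, 10.79, 10.38, 11.10, 10.83 and 10.51 in tumors 1 to 6 and 7.87, 8.10, 7.51, 7.44 and 8.14 in the controls, 2.88 ± 0.17 (adjusted p = 3.7e-07), and Dusp5 rose by 1.36 ± 0.28. Dusp6, the cytoplasmic ERK phosphatase, read 11.53, 11.71, 11.30, 10.25, 12.00 and 11.84 in tumors 1 to 6 and 10.36 to 11.48 in controls, with tumor 4 below the others, and was not called (0.49 ± 0.29) but called higher without tumor 4 (adjusted p = 0.0149). Dusp7 (-0.80 ± 0.17) and Dusp10 (-0.62 ± 0.14) fell.

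Transcription factors downstream of ERK also divided. The ETS factor Etv4 read 7.78, 8.18 and 8.37 in tumors and 6.27, 5.81, 5.82, 5.43 and 6.10 in the controls, 2.23 ± 0.16, and Etv5, which type 2 cells use too, rose by 1.60 ± 0.30. Myc read 9.53, 9.95 and 10.09 in tumors and 7.43, 8.74, 7.12, 7.79 and 7.88 in the controls and rose by 2.12 ± 0.24. Junb (0.95 ± 0.18) was also among the 5 of 11 measured factors that rose. The other 6 were not called, among them Fos at 0.31 ± 0.38, Fosb at -0.22 ± 0.45, Egr1 at 0.37 ± 0.23, Egr3 at -0.03 ± 0.10 and Fosl1 at -0.17 ± 0.18. Further outputs that rose were Phlda1 (1.15 ± 0.20), Epha4, Epha2 (0.56 ± 0.16) and the cytokine Lif (1.05 ± 0.33), the last not called without control 1 or 3 or tumor 5 or 6 (adjusted p 0.0506 to 0.066). Cyclin D1 (Ccnd1), at 11.03, 11.34 and 11.72 in tumors and 10.94 to 11.19 in controls, was not called (0.28 ± 0.13). Tumor 5 alone had a raised Hmga2, 7.55 against 5.68 to 6.33 in controls.

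**Figure D3:**
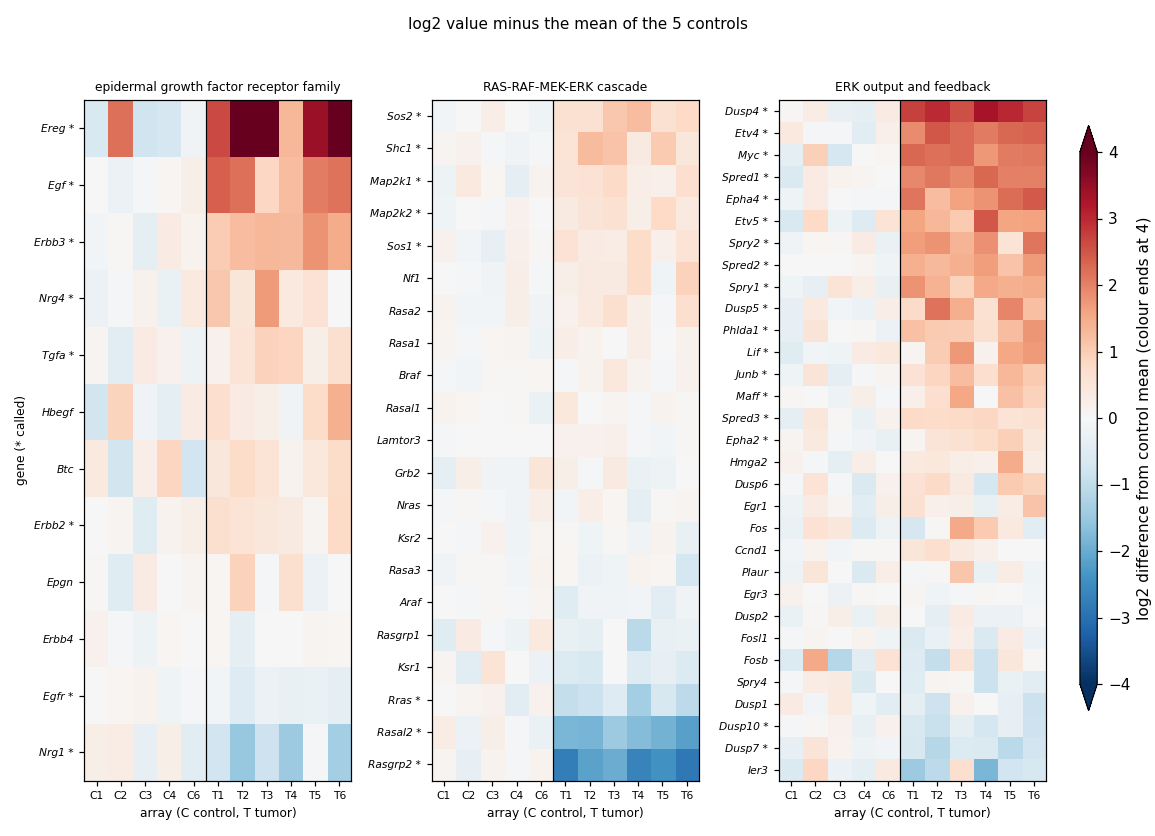
Log2 value minus the mean of the 5 controls (colour) for each measured member of the EGF receptor family, the RAS-RAF-MEK-ERK cascade and the ERK output list (rows, called genes starred) on each control (C) and tumor (T) array. Dusp4, Etv4, Myc and Spred1 are high in all 6 tumors, the cascade panel is mostly pale apart from Rasal2 and Rasgrp2, and the colour scale ends below the highest Ereg values.

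The stress kinases JNK and p38 and their regulators gave 9 of 26 higher and 4 lower. The higher count was 6 without control 1, 3 or 4 or tumor 3 or 5 and with quantile normalization, near the share of all genes (23.2%). It was 10 without control 6 or tumor 6. Above every control in all 6 tumors were 3 of the 26, against 14.3% of all genes. Mapk8 (JNK1) rose by 0.73 ± 0.16, and the p38 kinase Mapk12 fell (-0.82 ± 0.15). Dusp16, which acts on JNK, rose by 0.92 ± 0.15. Gadd45a rose (0.88 ± 0.14) and its relative Gadd45b fell, at 8.75, 9.29 and 9.51 in tumors and 10.15 to 10.69 in controls (-1.14 ± 0.15). Jun, the JNK target, fell by 1.50 ± 0.20.

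The Notch pathway was lower in its receptors and targets. All 4 of 4 receptors fell, led by Notch4 of endothelium (-1.80 ± 0.20) and Notch3 of smooth muscle (-1.70 ± 0.18). The target Hey1 read 8.70, 9.28 and 9.69 in tumors and 11.36 to 12.26 in controls, -2.43 ± 0.19, and 4 of 7 targets fell. Dlk1 was the 1 member that rose. In the Wnt pathway 6 of 28 members rose and 8 fell. The antagonist Dkk2 read 6.64, 7.57 and 7.95 in tumors and 4.54, 3.56, 3.68, 2.65 and 3.69 in the controls, 3.89 ± 0.31, while the antagonist Wif1 fell (-3.35 ± 0.58). Of the targets Sp5 rose by 2.46 ± 0.50 and Rnf43 by 1.02 ± 0.24. Axin2, the usual readout of the pathway, read 7.77, 6.81, 7.67, 10.20, 6.68 and 7.26 in tumors 1 to 6 against 8.34 to 9.04 in controls, high in a single tumor, and was not called (-0.98 ± 0.52) but called lower without tumor 4 (adjusted p = 0.0005). Wnt7b, the epithelial ligand, rose by 1.00 ± 0.15 and the stromal ligand Wnt2 fell by 1.83 ± 0.24.

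In the TGF-beta and BMP pathway 10 of 27 rose and 9 fell. Id2, a BMP target that blocks differentiation factors, read 11.30, 11.65 and 11.97 in tumors and 8.47 to 9.83 in controls, 2.55 ± 0.24. The ligand Bmp4 rose by 1.29 ± 0.18, the receptor Tgfbr1 by 1.31 ± 0.17 and the BMP antagonist Grem1 by 2.20 ± 0.44. Bmp6 fell by 3.92 ± 0.42 and the endothelial receptor Acvrl1 fell by 3.25 ± 0.19. In the other lists of signals, of 22 TNF family genes 6 rose and 4 fell. Tnfsf9, the 4-1BB ligand, read 8.08, 8.87 and 9.34 in tumors and 5.64, 5.88, 5.20, 5.62 and 5.85 in the controls, 3.20 ± 0.22, and the decoy receptor Tnfrsf23 rose by 2.63 ± 0.53. Tnfsf10, the death ligand TRAIL, fell by 3.65 ± 0.23 and the death receptor Fas fell by 1.11 ± 0.18.

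Imprinted genes did not move as a group, with 6 of 19 higher and 2 lower, but all 4 measured members of the Dlk1-Meg3 domain rose. In this domain Dlk1 is expressed from the paternal chromosome and the non-coding RNAs Meg3, Rian and Mirg from the maternal one. Rian read 12.24, 12.55, 11.84, 11.93, 11.89 and 12.27 in tumors 1 to 6 and 6.94, 7.35, 6.73, 7.0 and 6.27 in the controls, 5.26 ± 0.19 (adjusted p = 1.95e-08), with every tumor more than 4 log2 units above every control. Mirg rose by 3.98 ± 0.38. Meg3 read 12.17, 12.75, 12.50, 12.16, 7.08 and 12.39 in tumors 1 to 6 and 7.07 to 7.84 in controls, 4.05 ± 0.86. Tumor 5 thus lay at the control level of Meg3 while its Rian, at 11.89, and Dlk1, at 12.17, were as high as in the other tumors. In other domains Peg10 rose by 1.99 ± 0.39 and Phlda2 by 1.20 ± 0.35, and Ndn fell by 3.44 ± 0.19. Without tumor 5 the number of lower members was 4. Igf2, the fetal growth factor, was not called (-0.68 ± 0.41) but called lower without tumor 5 (adjusted p = 0.0474).

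Genes of digestive and embryonic epithelium rose in some tumors. Of 26 members 9 rose and 2 fell. Without controls 2 and 6 the counts were 6 and 1, the higher count then near the share of all genes (23.2%). Foxa2, shared by lung and gut, rose in every tumor above every control (0.86 ± 0.13). Slc2a2, the glucose transporter of liver and gut, read 4.89, 7.02 and 7.91 against 2.66 to 4.38 (2.98 ± 0.55). The fetal protein Afp rose by 2.30 ± 0.62, with an adjusted p of 0.0733 without controls 2 and 6. Intestinal Cdx2 (0.12 ± 0.11) and pancreatic Pdx1 (0.04 ± 0.12) were not called. The polymeric immunoglobulin receptor Pigr, of airway and gut, fell, at 6.05, 6.39 and 6.67 in tumors and 8.40 to 10.68 in controls (-3.31 ± 0.31). Liver transcripts stood beside these. Alb read 8.85, 11.40, 6.99, 6.64, 9.84 and 10.43 in tumors 1 to 6 and 6.11 to 6.86 in controls (2.49 ± 0.76, adjusted p = 0.0702 without controls 2 and 6), and of 8 liver and skin markers 3 rose, with Fgb (0.07 ± 0.17) and Krt1 (0.19 ± 0.12) not called. 

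Epithelial junction and filament genes gave 11 of 29 higher and 7 lower. The claudin Cldn2 read 10.00, 10.55 and 11.45 in tumors and 4.86 to 7.0 in controls, 4.54 ± 0.39, and Cldn4 rose by 2.73 ± 0.45. The keratin Krt23 rose by 2.09 ± 0.20 and the simple-epithelium keratin Krt18 by 1.31 ± 0.21. Epcam, an epithelial adhesion molecule, read 12.60, 12.73 and 12.87 in tumors and 11.24, 11.27, 10.64, 11.54 and 11.24 in the controls and rose by 1.54 ± 0.14. Regulators of the mesenchymal state fell, Zeb1 fell by 2.69 ± 0.24, Zeb2 fell by 1.62 ± 0.29 and Snai2 fell by 1.04 ± 0.21. Cdh1 was not called (-0.22 ± 0.11). The squamous marker Trp63 read 9.90 in tumor 5 and between 5.74 and 6.22 in the other tumors, against 5.95 to 6.11 in controls.

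Cell division genes were higher in tumors by their median, and how many passed the test depended on the arrays used, most on control 2 and tumor 4. Of 33 members 10 rose and 0 fell, with a median of 1.02. The mean level over the list was 8.70, 7.87, 7.87, 7.25, 8.10 and 8.72 in tumors 1 to 6 and 6.86, 7.97, 6.87, 6.71 and 7.61 in the controls, so control 2 lay above tumors 2, 3 and 4 and control 6 above tumor 4. Without both of these controls 24 of 33 rose, without control 2 alone 21 and without control 6 alone 11. The count was 23 without tumor 4, and 6 without control 1, 3 or 4 or tumor 1 or 6. Controls 2 and 6 carried the higher macrophage levels given above, and the part of those cells in this list was not tested. Mki67, a marker of cycling cells, read 11.41, 10.02, 10.36, 8.67, 10.35 and 11.39 in tumors 1 to 6 and 8.51, 10.70, 8.79, 7.81 and 10.31 in the controls (1.14 ± 0.59, adjusted p = 0.149) and was called without tumor 4 (adjusted p = 0.049) and without controls 2 and 6 (adjusted p = 0.0163). The mitotic kinase Cdk1 read 6.74, 8.35 and 9.63 against 6.50, 8.08, 6.74, 5.79 and 7.54 and rose by 1.47 ± 0.51, a call lost without control 1, 3 or 4 or tumor 1, 2, 3, 5 or 6 (adjusted p 0.0518 to 0.0972). Of 14 genes of replication and the G1-S step 4 rose, and of 19 mitotic genes 6. The helicase subunit Mcm7 rose by 1.29 ± 0.18 and Mcm6 by 1.14 ± 0.22, both above every control, and Mcm2 by 1.15 ± 0.27. Ccne1 (0.10 ± 0.12) and E2f1 (-0.09 ± 0.16) were not called. Promoters of this list are shown for the cell cycle genes homology region (CHR), TTTGAA, a repressor site of genes that are silent outside the dividing cell. On either strand it stood in 12 of 27 members with a promoter (44.4%), against 15.7% of all genes with a promoter, and CCAAT in 21 (77.8%), against 42.0%. The examples are Cdk1 (chr10:69352913-69352972, minus strand), Top2a (chr11:99024190-99024249, minus) and Kif11 (chr19:37376322-37376381, plus).
Cdk1: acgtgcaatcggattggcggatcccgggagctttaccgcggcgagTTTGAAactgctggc
Top2a: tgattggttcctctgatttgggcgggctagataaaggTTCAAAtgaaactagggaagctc
Kif11: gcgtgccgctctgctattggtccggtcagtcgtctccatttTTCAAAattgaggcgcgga
The capitals mark 1 match to TTTGAA, on the printed strand for Cdk1 and on the other strand for Top2a and Kif11. Top2a, the topoisomerase of mitosis, differed by 1.07 ± 0.54 and the spindle motor Kif11 by 0.86 ± 0.46, and neither was called over all arrays. Top2a was called without control 2 (adjusted p = 0.0475) and Kif11 without tumor 4 (adjusted p = 0.00747).

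DNA repair genes rose broadly, 15 of 24 higher and 0 lower, and 14 without controls 2 and 6. Xpc, which recognises bulky lesions, read 9.11, 9.74, 10.21, 9.64, 9.22 and 9.86 in tumors 1 to 6 and 7.95, 7.97, 8.14, 8.32 and 8.29 in the controls, 1.50 ± 0.18 (adjusted p = 7.06e-05). Apex1, the endonuclease of base excision, rose by 1.20 ± 0.14. Of the proteins that hold broken ends, Xrcc6 rose by 1.36 ± 0.14 and Xrcc5 by 1.01 ± 0.17. The mismatch repair gene Msh6 rose by 1.01 ± 0.12. Ogg1, which removes oxidised guanine, was not called (0.00 ± 0.11), nor was Rad54l (-0.13 ± 0.14). With the mean of its probe sets, however, Ogg1 was called higher by limma (0.307, adjusted p = 0.0408). Among p53 pathway genes 7 of 21 rose and 5 fell. Targets such as Zmat3 (0.88 ± 0.12), Eda2r (1.10 ± 0.15) and Perp (1.46 ± 0.27) rose. Cdkn1a (0.45 ± 0.31), the most used readout of p53, was not called. The cell cycle inhibitor Rb1 fell, at 6.62, 7.41 and 7.90 in tumors and 8.16 to 8.43 in controls (-0.89 ± 0.18). The count of lower p53 members was 3 without controls 2 and 6, without control 6 or without tumor 6.

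Metal handling genes moved at about the rate of all genes, 4 of 21 higher and 4 lower. Metallothionein Mt1 read 11.45, 11.80 and 12.42 in tumors and 11.15, 11.58, 9.80, 10.47 and 10.67 in the controls, 1.17 ± 0.28, with overlap, and Mt2 was not called (0.96 ± 0.43) but called higher without control 2 (adjusted p = 0.0153). The iron exporter Slc40a1 changed most, at 9.30, 10.98 and 11.57 against 7.25 to 7.97, 3.13 ± 0.35. As3mt, the methyltransferase that acts on arsenic, rose by 0.45 ± 0.13, with an adjusted p of 0.0526 without controls 2 and 6. Of the exporters Abcc4 rose (1.77 ± 0.29) and Abcc1 fell (-0.86 ± 0.18). The aquaglyceroporin Aqp9, a route for trivalent antimony, read 5.55, 5.91 and 6.93 against 4.68 to 6.42 and was not called (0.61 ± 0.32) but called higher without control 6 (adjusted p = 0.0306). Aqp1, a water channel of capillaries, fell by 1.90 ± 0.21, and the metal-sensing factor Mtf1 fell by 0.43 ± 0.11.

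NRF2 target genes did not move together. NRF2 is the factor that switches on antioxidant and detoxifying enzymes when its inhibitor KEAP1 is oxidised. Of 31 members 5 rose and 6 fell, and without controls 2 and 6 only 2 rose (3 without control 3 or control 6 alone). The gene of NRF2 itself, Nfe2l2, rose by 0.53 ± 0.10. Hmox1, which degrades heme, read 10.38, 10.78 and 12.40 in tumors and 9.75, 9.56, 9.21, 9.68 and 9.69 in the controls, 1.43 ± 0.30. Nqo1, its most used target, read 5.61, 6.97 and 8.27 in tumors and 7.58 to 9.05 in controls, -1.35 ± 0.53 (adjusted p = 0.0644), and was called lower without tumor 2, 3 or 5 (adjusted p 0.0316 to 0.0473). Gclm (-0.27 ± 0.27) and Srxn1 (0.56 ± 0.41) were not called, and the cystine carrier Slc7a11 rose by 1.83 ± 0.64, a call lost without control 2, 3, 4 or 6 or tumor 2, 3 or 5 (adjusted p 0.059 to 0.0968). Cbr2, a carbonyl reductase of airway cells, fell by 4.64 ± 0.87, the extracellular dismutase Sod3 fell by 3.71 ± 0.41 and the epoxide hydrolase Ephx1 fell by 1.48 ± 0.17.

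Aldo-keto reductases rose in part, 6 of 13 higher and 1 lower. Akr1c19 read 9.43, 10.26 and 11.26 in tumors and 5.48, 5.67, 5.41, 4.58 and 4.89 in the controls. Akr1b8 rose by 2.14 ± 0.28, Akr1c13 by 2.08 ± 0.26 and Akr1c18, which inactivates progesterone, by 2.56 ± 0.57. Akr1c14 fell (-1.79 ± 0.45), and Akr1a1 was not called (0.05 ± 0.12). The Akr1c genes are close in sequence, so their probe sets may share signal. Cytochrome P450 and related genes went the other way, with 12 of 19 lower and 1 higher. Cyp4b1 read 4.64, 6.42 and 9.18 in tumors against 12.05 to 12.61 in controls, -5.69 ± 0.62, Cyp2b10 fell by 5.42 ± 0.59 and the monooxygenase Fmo1 fell by 5.23 ± 0.59. Cyp4b1 is a gene of club cells, whose markers were also lower. Cyp1b1 rose by 1.34 ± 0.42, a call lost without control 2 or 6 or tumor 2 (adjusted p 0.0504 to 0.0578). Cyp1a1, the usual target of the aryl hydrocarbon receptor, fell, at 3.38, 3.83 and 4.08 in tumors and 4.89 to 5.63 in controls (-1.53 ± 0.17).

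Genes of glucose use rose, 8 of 12 with 0 lower, and 3 of the 12 lay above every control in all 6 tumors, against 14.3% of all genes. Together with hypoxia-related genes, 13 of 23 rose and 3 fell. That count of 13 was 9 without control 1, 3 or 4 and 10 without tumor 2, 3, 5 or 6. Hexokinase Hk2 read 8.98, 10.33 and 10.77 in tumors and 8.56, 8.16, 8.27, 8.22 and 8.47 in the controls, 1.80 ± 0.26. Ldha, which makes lactate, rose by 0.95 ± 0.21 and Pfkl by 1.32 ± 0.28, while Slc2a1 spread from 9.86 to 12.42 among tumors and was not called (0.53 ± 0.39). Hypoxia-related genes divided. Hif1a rose by 1.17 ± 0.17 and Pdk1 by 1.44 ± 0.19, and Epas1, the related factor of endothelium and type 2 cells, fell by 1.31 ± 0.12. Vegfa fell too, at 9.32, 9.86 and 10.27 in tumors and 10.55 to 11.10 in controls (-0.96 ± 0.19). In the mitochondrial respiratory chain 11 of 18 members rose by small amounts, among them Uqcrfs1 (0.78 ± 0.10), Atp5b (0.76 ± 0.12) and Ndufa9 (0.79 ± 0.13), but only 7 without controls 2 and 6 and as many without control 1, 2 or 3.

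Of 17 genes of sterol and fatty acid synthesis 6 rose and 3 fell, with a median of 0.11. Without controls 2 and 6 the counts were 8 and 0 and the median 0.56, so the falls given here depended on those controls. Without any single array 6 rose and 2 to 4 fell. Fatty acid enzymes rose, Me1 by 1.52 ± 0.16, Acly by 0.72 ± 0.13 and Acaca by 0.98 ± 0.18, with their regulator Srebf1 (0.81 ± 0.12). Sterol enzymes fell or were not called, with Sqle at -1.02 ± 0.30 (adjusted p = 0.125 without controls 2 and 6) and Hmgcs1 at 0.03 ± 0.22. Of 15 lipid carriers 6 rose, Apom by 0.77 ± 0.17 and Fabp1, a liver and gut carrier, by 2.18 ± 0.61, and the phospholipid transfer protein Pltp fell by 2.48 ± 0.20. That count of 6 was 4 without control 1, 3 or 4 or tumor 2, 5 or 6. The unfolded protein response gave 4 of 18 higher, Pdia4 most (1.20 ± 0.15), while Hspa5 (0.24 ± 0.12), Ddit3 (-0.29 ± 0.14) and Atf4 (-0.21 ± 0.13) were not called.

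Secreted and membrane proteins of the epithelium gave mixed lists. Of 17 channels and carriers 6 rose and 7 fell. With Trpv6, the calcium-binding partner S100g rose (1.27 ± 0.25), as did the chloride carrier Slc12a2 (1.46 ± 0.19). The chloride channel Cftr read 4.01, 4.70 and 5.08 in tumors and 7.03 to 8.94 in controls, -3.64 ± 0.31, and the sodium channel subunits Scnn1b (-2.51 ± 0.28) and Scnn1g (-2.48 ± 0.38) fell. Among proteases and inhibitors 2 of 19 rose, the leukoprotease inhibitor Slpi by 2.96 ± 0.52 and Spint1 by 1.19 ± 0.14, and 6 fell, among them the inhibitors Timp3 (-1.39 ± 0.15) and Reck (-2.43 ± 0.27). Mmp12, a macrophage elastase, read 8.23, 9.98 and 10.40 against 3.98, 8.27, 8.14, 6.62 and 10.19 in the controls and was not called (2.13 ± 0.90) but called higher without control 6 (adjusted p = 0.0186). Complement and coagulation genes gave 6 of 18 lower, thrombomodulin (Thbd) most at -4.13 ± 0.25, and Cfi higher (3.22 ± 0.77).

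To see where the tumors of exposed mice differed from spontaneous ones, both were compared in a fit over 15 arrays, with 4 spontaneous tumors whose arrays met the correlation limit. Both tumor groups share the same control lungs, so their differences from control are only set side by side. By limma, 10 of 18193 genes (0.055%) differed, 6 higher (0.033%) and 4 lower (0.022%) in tumors of exposed mice, and 1568 had an unadjusted p under 0.05. None of the members of the gene lists was among the 10. Sugct, a mitochondrial CoA transferase, read 6.75, 6.94 and 7.23 in tumors of exposed mice and 5.61, 5.97, 5.74 and 6.05 in spontaneous tumors, a difference of 1.12 ± 0.15 (adjusted p = 0.0168), against 5.21 to 6.02 in controls. The spontaneous tumors lay within or close to the control range, and the tumors of exposed mice above it. Sat2, a polyamine acetyltransferase relative, and Scaf8 showed the same order, with differences of 0.70 ± 0.12 and 0.71 ± 0.12. Abca5, a lipid transporter, was lower in spontaneous tumors, at 8.56, 8.59, 8.39 and 8.30, than in tumors of exposed mice, at 8.94, 9.62 and 9.80, or controls, at 9.62 to 10.05 (1.08 ± 0.15). Fxyd3, a regulator of the sodium pump, differed by 2.52 ± 0.41 and Prxl2a, a redox protein, by 1.74 ± 0.29. The genes lower in tumors of exposed mice were Tshr, the thyrotropin receptor, Mical2, Vps33b and the muscle cytochrome oxidase subunit Cox6a2. Tshr read 5.59, 5.70 and 5.95 in them, 5.61 to 5.90 in controls and 7.14, 7.40, 6.51 and 7.98 in spontaneous tumors (-1.51 ± 0.20, adjusted p = 0.0168). The difference between tumor groups was -0.70 ± 0.09 for Mical2, -1.36 ± 0.21 for Vps33b and -1.93 ± 0.32 for Cox6a2. Against control lung Vps33b (0.91 ± 0.21) and Cox6a2 (1.01 ± 0.30) rose in tumors of exposed mice, Cox6a2 with an adjusted p of 0.114 without controls 2 and 6, and Mical2 was not called (-0.14 ± 0.10). These calls rest on few arrays. By limma the count was 0 without tumor 6 (1532 at an unadjusted p under 0.05) or without spontaneous tumor 2 (1165), 1 without spontaneous tumor 3, and 4 without tumor 2, 3, 4 or 5. It was 28 without tumor 1 and 17 without spontaneous tumor 1.

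Some genes described above stood apart between the tumor groups without passing the threshold. Dlk1 read 4.43, 10.62, 8.07 and 7.83 in the 4 spontaneous tumors, a difference of 4.26 ± 0.89 (adjusted p = 0.127) from tumors of exposed mice. Xpc was at 8.67, 8.12, 8.91 and 8.71 there and differed by 1.03 ± 0.20 (adjusted p = 0.0974), Pigr at 7.07, 8.72, 8.93 and 8.82 and -2.06 ± 0.39 (adjusted p = 0.0935), and Retnla at 6.90, 12.90, 11.05 and 12.18 and -3.33 ± 1.03 (adjusted p = 0.337). For the ERK genes the differences between tumor groups were small beside those from control. Dusp4 was at 11.15, 10.40, 10.49 and 10.97 in spontaneous tumors (-0.06 ± 0.19), Spred1 at 11.91, 11.18, 11.46 and 11.75 (0.15 ± 0.17), Etv4 at 8.16, 7.80, 7.88 and 8.35 (0.07 ± 0.17) and Myc at 9.34, 9.28, 9.31 and 9.51 (0.55 ± 0.23). A p above the threshold does not show that the tumor groups were alike.

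The 6 tumors also differed from each other. The SD among tumors was larger than that among controls in 62.9% of genes, with medians of 0.25 and 0.21. In 485 genes the tumor SD was at least 1 log2 unit, and 49 of these had a control SD of at least 1 as well. Sox2, a transcription factor of airway epithelium, had the largest SD, 3.16. It read 8.17, 2.48, 2.38, 2.72, 8.97 and 2.29 in tumors 1 to 6 and 8.90, 8.04, 8.05, 9.38 and 8.60 in the controls, so that tumors 1 and 5 stood at the control level and the other 4 more than 5 log2 units lower. Gkn2 (SD 3.16) had the values 5.56, 11.47, 10.33, 5.21, 12.51 and 11.04, lowest in tumors 1 and 4, against 4.09 to 4.52 in controls. Lce3f, at 9.02, 13.08, 8.79, 5.11, 11.60 and 11.14, was also lowest in tumor 4. The claudin Cldn6 read 3.86, 7.71, 4.34, 3.71, 9.84 and 8.92, high in tumors 2, 5 and 6, and 3.55 to 4.66 in controls. Apolipoprotein B (Apob) read 5.64, 10.59, 6.13, 8.31, 12.29 and 9.79 against 5.65 to 6.40, highest in tumor 5. Bche, a cholinesterase, was above the controls (6.83 to 7.62) in tumors 2 and 5 and below them in the other 4, at 4.56, 9.43, 4.88, 4.57, 9.85 and 6.13. Antibody genes varied as well, Igk from 5.86 to 12.67 and Jchain from 3.83 to 10.34, with the lowest values in tumors 4 and 6. The neutrophil attractant Cxcl5 read 4.64, 8.40, 6.04, 3.16, 8.78 and 9.82, and Bpifa1 13.26, 13.62, 10.10, 7.63, 8.59 and 12.47.

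**Figure D4:**
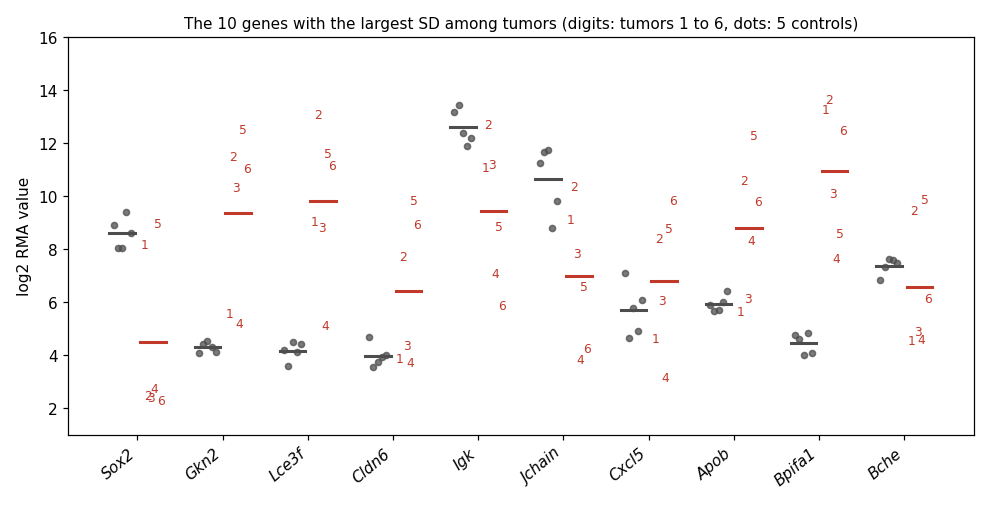
Log2 RMA values (vertical axis) of the 10 genes with the largest SD among the 6 tumors, with each tumor drawn as its number, controls as grey dots and bars at group means. Sox2 falls into a high pair (tumors 1 and 5) and 4 low tumors, and the controls lie close together in all genes but Jchain and Cxcl5.

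Gene levels were then summarised by chromosome, over the 9071 genes at or above the median gene mean, as the median of each array's difference from the control mean. Over all chromosomes this median was 0.157 to 0.196 in the 6 tumors. Chromosome 6 was higher in every tumor, at 0.307, 0.502, 0.502, 0.45, 0.452 and 0.657 in tumors 1 to 6, over 482 genes, with a mean of 0.478 over the 6 tumors. Over all genes of chromosome 6, the weakly expressed ones included, that mean was 0.188. Of the 482 genes of chromosome 6 at or above the median gene mean, 53.9% were called higher and 10.6% lower. Over the 9071 genes of all chromosomes at or above that mean the shares were 32.9% and 15.5%. Chromosome 4 was lower, at -0.259, -0.118, -0.054, 0.037, -0.048 and -0.421 over 529 genes, of which 10.6% were called higher and 27.8% lower. When each of these chromosomes was divided into 5 runs of genes along its length, every run of chromosome 6 read 0.242 to 0.753 in the 6 tumors, and the runs of chromosome 4 read -0.319 to -0.562 in tumor 6. Single tumors had shifts of their own. Tumor 4 stood at 0.392 to 0.488 on chromosomes 2, 8, 12, 13, 14, 16 and 17 and within 0.067 log2 units of 0 on the other chromosomes except 1 and 6. Tumor 5 read -0.278 on chromosome 9, -0.237 on chromosome 11 and -0.213 on chromosome X, and stood at 0.367 to 0.423 on chromosomes 7, 8, 10, 15, 17 and 19. Control arrays lay between -0.07 and 0.06 on every chromosome. DNA copy number was not measured, and its part in these medians was not tested.

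**Figure D5:**
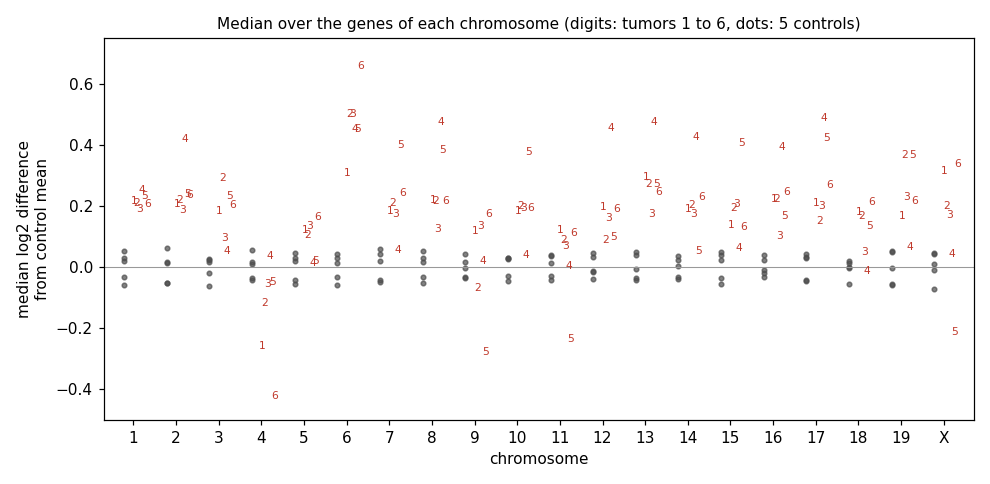
Median log2 difference from the control mean (vertical axis) over the genes of each chromosome at or above the median gene mean, for tumors 1 to 6 (red digits) and the 5 controls (grey dots). Chromosome 6 is raised in all 6 tumors, chromosome 4 is lowest in tumors 1 and 6, and tumors 4 and 5 have chromosomes that stand apart from the others.

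Genes of the sex chromosomes checked the samples. The Y-linked gene Eif2s3y read 9.13, 10.47 and 10.76 in tumors and 10.24 to 10.35 in controls, a Y-linked signal on all 11 arrays. Kdm5d (0.68 ± 0.15) and Uty (0.58 ± 0.13) rose. Xist, the RNA that silences an X chromosome in females, read 4.54, 4.65, 4.46, 8.18, 5.25 and 4.89 in tumors 1 to 6 and 5.60 to 6.44 in controls (-0.57 ± 0.57), highest in tumor 4, and was called lower without tumor 4 (adjusted p = 0.000852). Genes often used as references were not all level, with 7 of 10 higher and 1 lower. Rplp0 rose by 0.64 ± 0.12 and Tfrc by 0.85 ± 0.20. Of 9010 genes with several probe sets, 2958 had 2 or more called in 1 direction and none in the other, and 80 had probe sets called in opposite directions, among them Map3k20, for which no direction is given.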

How the data were processed

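Total RNA was read on a 1-colour Affymetrix mouse array with 45101 probe sets, on 18 arrays in 3 groups. The authors deposited log2 values made by RMA, per the submitters' processing notes, which corrects background, normalizes between arrays and summarises each probe set. The genome build behind the probe sets is not given in the sources used here. From these values, probe sets with 1 gene symbol were kept and the probe set with the highest mean stood for each gene, which gave 18193 genes. Tumors were compared with controls by limma 3.58.1 in R 4.3.3 (lmFit and eBayes over 11 arrays, Benjamini-Hochberg adjustment over all genes, threshold 0.05), and with spontaneous tumors in a fit of 15 arrays. The fits were tested on simulated data. The number of arrays limits the precision.

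Members and gene lists were chosen with earlier results of these data known. Named were the 15 largest changes per direction without overlap, up to 6 called members per list and direction by p, members not called that have a role, any member of the ERK, RAS, EGF receptor, metal, NRF2, cell division and sex chromosome lists, the 10 largest tumor SDs, the 6 smallest p per direction against spontaneous tumors, and up to 6 genes with opposite probe sets. Foxj1, Scgb1a1, Nkx2-1, Dnaic2 and Ifit1 fall outside this rule. Replicate numbers did not pair the samples. Alternatives covered normalization, filters, probe sets, samples, covariates and left-out arrays. Control 5 and spontaneous tumors 5 and 6 had a median correlation with the other arrays under 0.8.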

Additional observations from a re-analysis of the deposited data

Results flagged for a closer look

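In 52 of 672 groups of values of named genes (7.74%), 1 array stood apart from the others of its group by Dixon's 95% limit, where chance gives about 1 in 20. Some of these genes were named for their spread among tumors or with their values known, so the share is a description and not read against that rate. Tumor 5 was that array 14 times, tumor 3 9 times, and tumor 4 and control 2 7 times each.

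Tumor 5 stood above the other tumors for genes of cilia, at a log2 signal of 6.20 for Foxj1, 6.37 for 1110017D15Rik and 3.79 for Hoatz, and for 1700016K19Rik (6.29), the monooxygenase Fmo1 (9.23), Prox1 (7.44), Trp63 (9.90), Hmga2 (7.55), Fgb (6.85), Wnt2 (4.54) and Xrcc6 (8.84). It stood below them for Meg3 (7.08), Abca5 (8.94) and Ctsh (12.87). Tumor 4 was the highest for Axin2 (10.20), Nkx2-1 (9.98) and Xist (8.18) and the lowest for Afp (8.23), Pdpn (8.34), Slc35f1 (4.90) and Usp18 (3.78). Tumor 3 was the highest for Hmox1 (12.40), Cd163 (8.50), the mesothelial genes Msln (9.58) and Gpm6a (5.04), Aqp1 (10.79) and Krt1 (4.87), and the lowest for Fgfr2 (11.60), S100g (9.84) and Sertad4 (9.24). Tumor 6 was high for Bmp4 (11.62) and low for Dpep1 (4.54) and Snai2 (7.37). Tumor 2 was low for Erbb4 (3.64) and Rad54l (6.29) and high for Zmat3 (9.31), and tumor 1 low for Ogg1 (7.86).

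Control 2 was the highest control for the interferon-induced genes Ifit1 (10.49), Ifit3 (12.17) and Cxcl10 (9.51), for Csf3r (8.0), Ereg (6.36), Sox9 (6.18) and Fabp1 (7.66). Control 6 was the highest for Arg1 (6.24), Krt79 (7.58) and Cxcl15 (14.08), and control 4 for Mirg (6.08) and Scnn1g (10.49). Control 3 was low for Abcc1 (8.65) and Npy2r (2.20), and control 1 for Cltrn (2.48).

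The 10 genes with a difference between tumors of exposed mice and spontaneous tumors by limma were Sugct (1.12), Abca5 (1.08), Fxyd3 (2.52), Prxl2a (1.74), Sat2 (0.70) and Scaf8 (0.71), higher in tumors of exposed mice, and Mical2 (-0.70), Tshr (-1.51), Vps33b (-1.36) and Cox6a2 (-1.93), lower in them, all as log2 differences.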

How the results depend on the processing

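The 6952 genes called between tumors and controls became 2761 (1530 higher, 1231 lower) with the poor array of control 5 and 1353 (541 and 812) with all 18 arrays. With the mean of Y-linked genes as a covariate the count was 3944 (2204 and 1740). That mean includes Kdm5d and Uty, which rose in tumors, so the covariate can take up part of the group difference. With a required change of 2-fold the count was 832 (237 and 595). Over only the genes at or above the median gene mean it was 4596, with 1473 lower. In the test of all genes 4392 of these were called. With all probe sets tested singly the count was 13049 (7905 and 5144), because more were tested. Without each array in turn it ran from 5902 to 6852, with 3457 to 4162 higher and 2435 to 2690 lower. Without controls 2 and 6, added once the values were known, 6281 genes were called, among them 81.8% of the original calls in the same direction, and exact permutation tests called 6475. Same-numbered tumors and controls did not deviate together (correlations of -0.07 to 0.09). With the replicate block 6028 genes were called, which kept 82.2% of the calls.

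The 10 genes called against spontaneous tumors became 5 (2 higher) with quantile normalization. By limma there were 0, with 0 in each direction, in a fit of the tumors only, with all 18 arrays and with the replicate block, where 1269, 1160 and 1523 had an unadjusted p under 0.05. The Y-linked covariate gave 8 calls (2 higher, 6 lower), and single left-out arrays gave 0 to 28 calls (0 to 18 higher, 0 to 11 lower).

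The chromosome 6 median, as a mean over the 6 tumors, was 0.478 over the genes at or above the median gene mean and 0.188 over all its genes. The Gapdh probe set difference kept its direction without any single array (-0.823 to -0.648), and that of actin ran from -0.028 to 0.004. Among 336 named genes, B2m turned to 0.397 with control 5 or all 18 arrays and was then not called. Ogg1 turned to 0.307 with the mean of its probe sets and was then called higher. Mical2 turned to 1.347 against spontaneous tumors with all 18 arrays and was then not called. Of 257 called named genes, 158 lost the call in at least 1 setting with the sign of the difference kept. Of 79 not called, 28 gained a call, also with the sign kept. Of the called genes 16 lost the call without 1 array and 17 without controls 2 and 6. The cause of these changes was not tested beyond those stated. The labels give no exposure level or sex per array, and control lung matches the tumors in neither exposure nor tissue.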
